A study of Mus musculus with 8 samples.

Results

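The contractile actins and the smooth muscle genes that work with them were measured by 17 probe sets of 10 genes, out of 22690 probe sets and 12393 named genes on a mouse expression array. The genes are the actins Acta1, Acta2, Actc1 and Actg2, the myosin genes Myh11 and Myl9, the thin-filament genes Tpm1, Tpm2 and Cnn1, and Tagln. Every probe set that the platform annotation pairs with one of them was taken. The RNA came from stromal-vascular cells of the inguinal white fat of male C57BL/6J mice, which had been differentiated into adipocytes in culture. The 4 groups, of 2 arrays each, were sh-PRDM16 cells treated with 1 µM rosiglitazone, sh-PRDM16 cells with no agent, sh-scr cells treated with 1 µM rosiglitazone, and sh-scr cells with no agent. All 4 groups thus carried an shRNA. The shRNA named sh-PRDM16 is directed at PRDM16, a nuclear protein known for switching on brown fat genes. The sh-scr cells are the control line. Rosiglitazone is an agonist of PPARγ, the nuclear receptor that drives fat cell differentiation. The labels name biological replicates but give no culture or animal for each array, and a p-value here covers no more than the spread of these arrays. RNA of Prdm16 was not analysed here, and which cells had the knockdown is taken from the labels.

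In a smooth muscle cell or myofibroblast, actin filaments are pulled on by myosin when the myosin regulatory light chain is phosphorylated, and tropomyosin and calponin lie along the actin filament. Acta2 is the usual marker of smooth muscle and of myofibroblasts, Acta1 and Actc1 are the main actins of skeletal and heart muscle, and Actg2 is the actin of visceral smooth muscle. Many of these genes are transcribed through serum response factor, which binds a promoter motif called the CArG box. In fat, precursor cells carry a contractile actin cytoskeleton that is known to be taken down as they round up and fill with lipid.

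The upstream sequences are shown for 4 of the members described below. Responses were not compared between members, nor tested against these sequences. They cover the 250 bases before the annotated start of the gene, from RefSeq on GRCm38.p6, written 5′ to 3′ on the gene's own strand. Capitals mark CArG boxes and also near matches, with 1 G or C within the A/T core. Acta1 lies on the minus strand at chr8:123894776-123895025, Acta2 on the minus strand at chr19:34255374-34255623, Myl9 on the plus strand at chr2:156775214-156775463, and Cnn1 on the plus strand at chr9:22099003-22099252.
Acta1: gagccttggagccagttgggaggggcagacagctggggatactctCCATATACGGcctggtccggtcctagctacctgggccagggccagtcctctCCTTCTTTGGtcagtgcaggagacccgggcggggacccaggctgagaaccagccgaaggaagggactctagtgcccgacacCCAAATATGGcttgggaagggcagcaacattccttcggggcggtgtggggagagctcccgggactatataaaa
Acta2: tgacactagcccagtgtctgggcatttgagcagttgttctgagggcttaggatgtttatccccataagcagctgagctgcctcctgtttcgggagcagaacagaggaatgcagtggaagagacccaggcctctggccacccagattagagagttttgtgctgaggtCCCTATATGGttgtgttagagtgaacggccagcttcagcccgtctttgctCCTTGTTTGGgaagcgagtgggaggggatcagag
Myl9: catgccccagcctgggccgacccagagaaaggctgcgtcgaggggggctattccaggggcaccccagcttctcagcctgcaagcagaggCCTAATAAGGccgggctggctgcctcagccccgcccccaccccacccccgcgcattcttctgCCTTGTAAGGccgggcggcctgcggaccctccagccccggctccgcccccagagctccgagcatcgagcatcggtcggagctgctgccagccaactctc
Cnn1: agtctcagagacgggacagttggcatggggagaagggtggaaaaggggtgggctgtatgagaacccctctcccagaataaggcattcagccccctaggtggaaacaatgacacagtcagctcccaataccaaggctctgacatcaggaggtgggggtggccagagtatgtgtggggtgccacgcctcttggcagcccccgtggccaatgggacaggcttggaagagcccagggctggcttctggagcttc

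Upstream sequences were matched for 7 of the 10 genes; Actg2, Myh11 and Tagln are named only. A full CArG box was found in 3 of the 7, at 73 bases before the start in Acta1, 47 in Actc1 and 161 in Myl9. Of 32841 windows of the same 250 bases, 1.47% held one. Near matches, with exactly 1 G or C in the core, were found in 4 of 7, Acta1, Acta2, Actc1 and Myl9, against 7.24% of all windows. Acta2 held near matches only, 84 and 34 bases before its start. No match of either kind was found in Cnn1, Tpm1 or Tpm2. The letters CATTCC of the MCAT element, searched on both strands, were in the windows of Acta1, Acta2 and Tpm1, and in 12.6% of all windows. No MCAT match overlapped a CArG match. A match is a description of these letters and not a measured binding site.

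Array medians ran from 101 to 136 in intensity. The β-actin 3′ minus 5′ difference, a sign of RNA integrity, was log2 0.38 and 0.49 in treated sh-scr arrays and 0.25 to 0.34 in the other 6. Of 11 adipocyte markers, Fabp4 and Adipoq were bright, from 16410 to 22736 and from 9965 to 15191 over the 8 arrays. Others were lower or varied more, such as Cidec at 222 to 5697, Retn at 401 to 4346 and Slc2a4 at 130 to 378. The fibroblast markers Sparc, at 18649 to 22226, and Col3a1, at 16995 to 20894, were bright as well. The share of adipocytes in the cultures was not measured. Macrophage and leukocyte markers, 9 genes with 8 above the filter on dim probe sets, summed to 862 and 898 in treated sh-PRDM16, 1136 and 1065 in untreated sh-PRDM16, 3348 and 3312 in treated sh-scr, and 5147 and 5642 in untreated sh-scr cells. Replicate arrays correlated at 0.990 to 0.991 across probe sets, and at most at 0.9834 with an array of another group.

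All intensities below are on the linear scale as deposited, and a log2 change is of intensity plus 16. Levels of different probe sets cannot be compared with each other. Because array medians differed, counts of calls are also given with every array centred on its median log2 value, and quantile normalization was the other scale tried. Counts are on the deposited scale unless centred arrays are named. The filter left out the 25% of probe sets with the lowest mean intensity, under 19.7. It kept 16 of the 17 member probe sets, and Myh11 1418122_at, which read between 3.2 and 23.3 in every group, was not tested. The names of probe sets carry design notes: an _s_at or _x_at set may pick up related transcripts, and an _a_at set several transcripts of 1 gene. The 4 actins are closely related in sequence, and cross-hybridization between their transcripts was not tested, so a share of it cannot be told apart here.

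**Figure D1:**
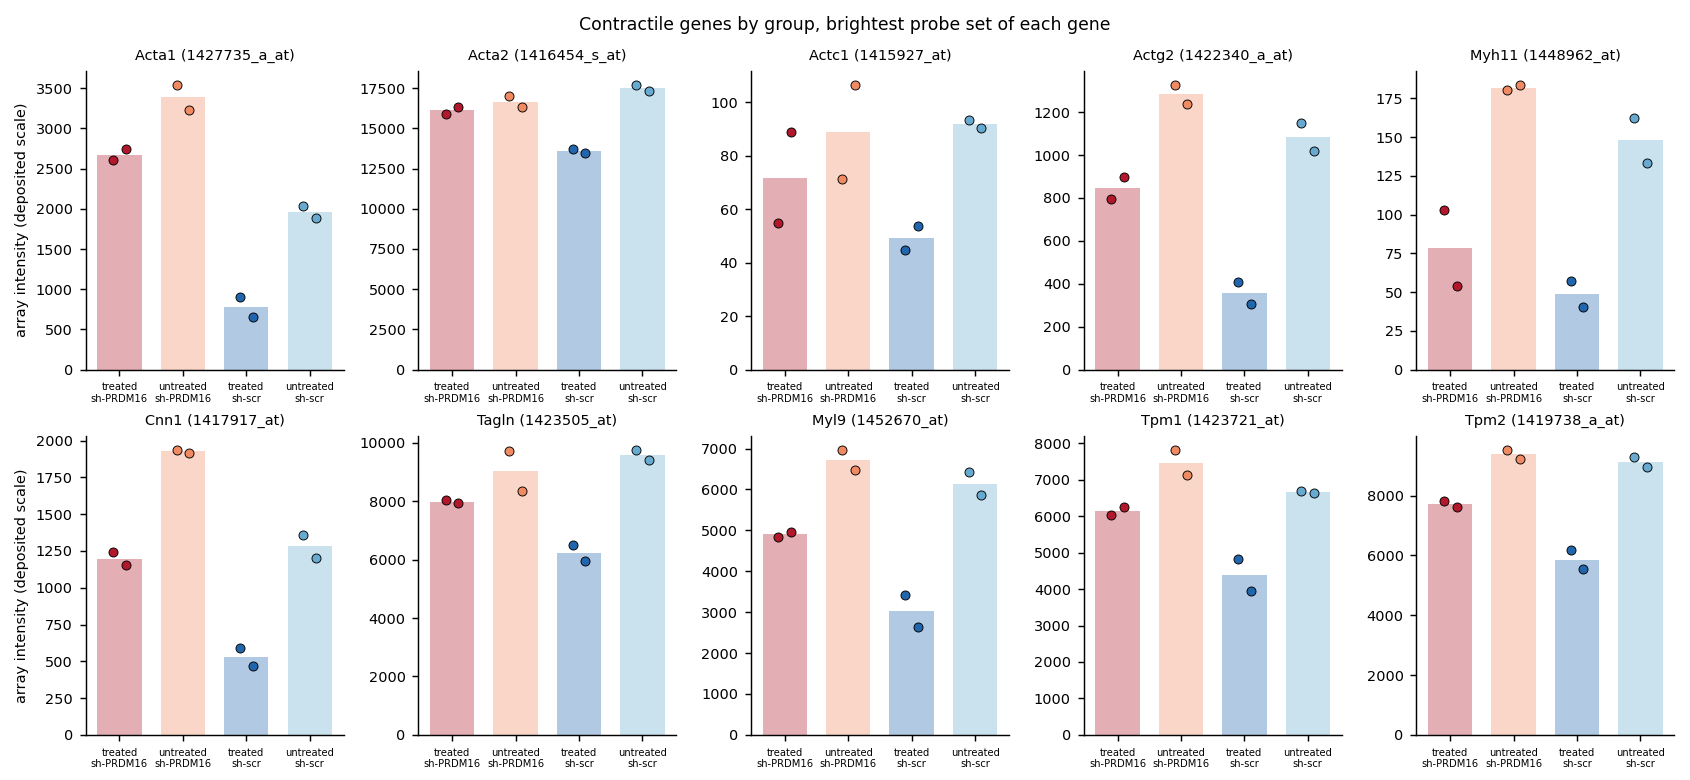
Array intensity on the deposited scale of the brightest probe set of each of the 10 genes, in treated sh-PRDM16, untreated sh-PRDM16, treated sh-scr and untreated sh-scr cells (bars, mean of 2 arrays; points, the arrays). Treated sh-scr cells have the lowest mean of the 4 groups in all 10 panels.

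Acta1, the skeletal muscle actin, separated all 4 groups. It read 2605 and 2739.9 in treated sh-PRDM16 cells, 3543 and 3235 in untreated sh-PRDM16 cells, 907 and 654 in treated sh-scr cells, and 2032 and 1891 in untreated sh-scr cells. No group overlapped another, and even the treated sh-PRDM16 arrays lay above the untreated sh-scr arrays. Against treated sh-scr cells, Acta1 rose 3.42-fold in treated sh-PRDM16 cells (log2 1.77, SE 0.17, limma adjusted p = 0.000913), higher than 99.94% of the 15285 probe sets tested. Without the drug it rose 1.72-fold in sh-PRDM16 cells against sh-scr cells (log2 0.78, SE 0.17, limma adjusted p = 0.0193). With rosiglitazone Acta1 fell 2.51-fold in sh-scr cells (log2 -1.33, SE 0.17, limma adjusted p = 0.0022). In sh-PRDM16 cells the change with the drug was log2 -0.34 (95% interval -0.73 to 0.05, limma adjusted p = 0.263).

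Other genes of skeletal and cardiac muscle were mostly too dim to test. Of 37 sarcomere genes on the array, 24 lay under the filter, including Ckm, muscle creatine kinase, at 2.0 to 26.7, and the muscle transcription factors Myod1, at 4.1 to 23.2, and Myog, at 2.1 to 16.6. Of the 13 tested, 3 fell with the drug in sh-scr cells, where Acta1 fell too: Myh1 at log2 -0.70, Mylpf at -0.67 and Tnnc1 at -0.47 (limma adjusted p = 0.0225, 0.0205 and 0.0459). Of all probe sets 25.4% fell there, and on median-centred arrays 0 of the 13 did. In sh-PRDM16 against sh-scr cells 0 rose and 1 fell with the drug, where 3.42% of all probe sets fell, and 0 rose and 2 fell without it, where 10.9% of all fell. The 2 were Myh1 and Myl1, and Myl1 was no longer called on median-centred arrays (-0.64, adjusted p = 0.123). The myosin gene Myh1 read 30.5 and 26.9 in treated sh-PRDM16, 35.2 and 38.3 in untreated sh-PRDM16, 45 and 69.6 in treated sh-scr, and 95.8 and 107 in untreated sh-scr cells. It was lower in sh-PRDM16 than in sh-scr cells with the drug (log2 -0.69, limma adjusted p = 0.0412) and without it (log2 -1.15, limma adjusted p = 0.0044), opposite to Acta1.

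Actg2, the visceral smooth muscle actin, gave the largest fall of the members with rosiglitazone in sh-scr cells. It read 794 and 899 in treated sh-PRDM16 cells, 1327 and 1238 in untreated sh-PRDM16 cells, 410.1 and 308 in treated sh-scr cells, and 1151 and 1018 in untreated sh-scr cells. The groups did not overlap. In sh-scr cells it fell 2.96-fold with the drug (log2 -1.56, SE 0.17, limma adjusted p = 0.00108). In sh-PRDM16 cells it changed by log2 -0.59 (limma adjusted p = 0.0589), and on median-centred arrays by -0.60 with an adjusted p of 0.0235. With the drug it was 2.32-fold higher in sh-PRDM16 than in sh-scr cells (log2 1.21, SE 0.17, limma adjusted p = 0.00462), and without the drug the difference was log2 0.24 (limma adjusted p = 0.391).

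Acta2, the α-actin of smooth muscle, was among the brightest probe sets of the array, with the mean of 1416454_s_at above 99.9% of all. It read 15889 and 16349.8 in treated sh-PRDM16 cells, 17009.6 and 16300.1 in untreated sh-PRDM16 cells, 13748 and 13486 in treated sh-scr cells, and 17706 and 17313 in untreated sh-scr cells. The treated sh-scr arrays were lowest and the 2 sh-PRDM16 groups overlapped. None of its 4 contrasts passed the test: with the drug in sh-scr cells it changed by log2 -0.36 (SE 0.12, limma adjusted p = 0.0536), and by -0.06 on median-centred arrays. The highest intensity on any array was 22736, so this probe set lay near the upper end of the range.

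The other Acta2 probe set, 1456658_at, was dim and behaved otherwise. It read 30.3 and 30.1 in treated sh-PRDM16, 35.2 and 37.4 in untreated sh-PRDM16, 16.7 and 10.3 in treated sh-scr, and 31.4 and 38.4 in untreated sh-scr cells. The treated sh-scr arrays were far the lowest and lay under the floor of the filter. It fell in sh-scr cells with the drug (log2 -0.79, SE 0.15, limma adjusted p = 0.01) and was higher in treated sh-PRDM16 than in treated sh-scr cells (log2 0.66, SE 0.15, limma adjusted p = 0.0317). Which of the 2 probe sets follows the Acta2 transcript was not tested.

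Actc1, the cardiac actin, was dim and variable. It read 54.7 and 89 in treated sh-PRDM16, 71.2 and 107 in untreated sh-PRDM16, 44.8 and 53.6 in treated sh-scr, and 93.4 and 90.6 in untreated sh-scr cells. The sh-PRDM16 groups overlapped each other. It fell with the drug in sh-scr cells (log2 -0.73, SE 0.22, limma adjusted p = 0.0395), but on median-centred arrays the change was -0.43 with an adjusted p of 0.284.

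Cnn1, the calponin that binds actin in smooth muscle, was the member called in all 4 contrasts on all 3 scales tried. It read 1240.1 and 1154 in treated sh-PRDM16 cells, 1935 and 1919 in untreated sh-PRDM16 cells, 588 and 470.2 in treated sh-scr cells, and 1360.1 and 1205 in untreated sh-scr cells. Treated sh-PRDM16 and untreated sh-scr arrays overlapped, and the other groups stood apart. With the drug it fell 1.60-fold in sh-PRDM16 cells (log2 -0.68, SE 0.15, limma adjusted p = 0.0234) and 2.39-fold in sh-scr cells (log2 -1.26, SE 0.15, limma adjusted p = 0.00166). Against sh-scr cells it rose 2.24-fold in sh-PRDM16 cells with the drug (log2 1.16, SE 0.15, limma adjusted p = 0.00351). Without the drug it rose 1.5-fold (log2 0.58, SE 0.15, limma adjusted p = 0.0374). The calls in sh-PRDM16 cells and without the drug did not hold when single arrays were left out, as counted further on.

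Myh11, the smooth muscle myosin heavy chain, fell with rosiglitazone in both lines. Its probe set 1448962_at read 103 and 54 in treated sh-PRDM16, 180.4 and 184 in untreated sh-PRDM16, 56.9 and 40.2 in treated sh-scr, and 163 and 134 in untreated sh-scr cells. The treated arrays of both lines overlapped each other and lay under all untreated arrays. It fell 2.17-fold in sh-PRDM16 cells (log2 -1.12, SE 0.25, limma adjusted p = 0.0229) and 2.55-fold in sh-scr cells (log2 -1.35, SE 0.25, limma adjusted p = 0.00894). On median-centred arrays the sh-scr change was -1.05 with an adjusted p of 0.0532. The difference of sh-PRDM16 minus sh-scr cells was log2 0.51 with the drug and 0.28 without, and neither passed (limma adjusted p = 0.197 and 0.514).

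Myl9, the regulatory light chain of smooth muscle myosin, read 4836 and 4966 in treated sh-PRDM16, 6959 and 6476 in untreated sh-PRDM16, 3423 and 2641 in treated sh-scr, and 6417 and 5861 in untreated sh-scr cells. No groups overlapped, with treated sh-scr lowest. In sh-scr cells it fell 2.03-fold with the drug (log2 -1.02, SE 0.16, limma adjusted p = 0.00461). It was 1.63-fold higher in treated sh-PRDM16 than in treated sh-scr cells (log2 0.70, SE 0.16, limma adjusted p = 0.0287). In sh-PRDM16 cells the drug changed it by log2 -0.45 (limma adjusted p = 0.109; -0.46 and 0.0447 on median-centred arrays).

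Tagln, the actin-binding protein transgelin, read 8024 and 7925 in treated sh-PRDM16, 9717 and 8354 in untreated sh-PRDM16, 6514 and 5949 in treated sh-scr, and 9746 and 9408 in untreated sh-scr cells. Treated arrays of each line lay under its untreated arrays. It fell 1.54-fold in sh-scr cells (log2 -0.62, SE 0.14, limma adjusted p = 0.0153) and changed by log2 -0.18 in sh-PRDM16 cells (limma adjusted p = 0.494). The difference of sh-PRDM16 minus sh-scr cells was log2 0.36 with the drug (limma adjusted p = 0.121) and -0.09 without (limma adjusted p = 0.729). The sign of that last value turned on median-centred arrays, at 0.10 with an adjusted p of 0.442.

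Tropomyosin, which runs along the actin filament, was covered by 3 probe sets of Tpm1 and 4 of Tpm2. The brightest of Tpm1, 1423721_at, read 6038 and 6257 in treated sh-PRDM16, 7813 and 7132 in untreated sh-PRDM16, 4837 and 3949 in treated sh-scr, and 6702 and 6638 in untreated sh-scr cells. The groups did not overlap. All 3 Tpm1 probe sets fell with the drug in sh-scr cells, by log2 -0.61 to -0.74 (limma adjusted p at most 0.0206), and on median-centred arrays 1423049_a_at alone did (-0.41, adjusted p = 0.0137). In sh-PRDM16 cells they changed by -0.28 to -0.37 with none called, and 1423049_a_at was called there on median-centred arrays (-0.38, adjusted p = 0.0183).

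The brightest probe set of Tpm2, 1419738_a_at, read 7807 and 7627 in treated sh-PRDM16, 9519 and 9231 in untreated sh-PRDM16, 6177 and 5541 in treated sh-scr, and 9298 and 8946 in untreated sh-scr cells. The untreated groups overlapped and the treated sh-scr arrays were lowest. It fell in sh-scr cells (log2 -0.64, SE 0.13, limma adjusted p = 0.0117), as did 1425028_a_at (-0.86, limma adjusted p = 0.00802) and 1449577_x_at (-0.77, limma adjusted p = 0.0142). On median-centred arrays 1419738_a_at was no longer called (-0.33, adjusted p = 0.0584). The dim 1419739_at, at 30.7 to 56.1, changed by -0.37 (limma adjusted p = 0.115).

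The Tpm2 probe sets disagreed between the lines. With the drug, 1449577_x_at read 814 and 736 in sh-PRDM16 cells against 484 and 386 in sh-scr cells, and rose 1.76-fold (log2 0.82, SE 0.16, limma adjusted p = 0.0203). In the same comparison 1419739_at differed by log2 -0.02 (limma adjusted p = 0.933), a spread of 0.84 over the 4 probe sets of 1 gene. Those of Tpm1 spanned only 0.49 to 0.61.

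**Figure D2:**
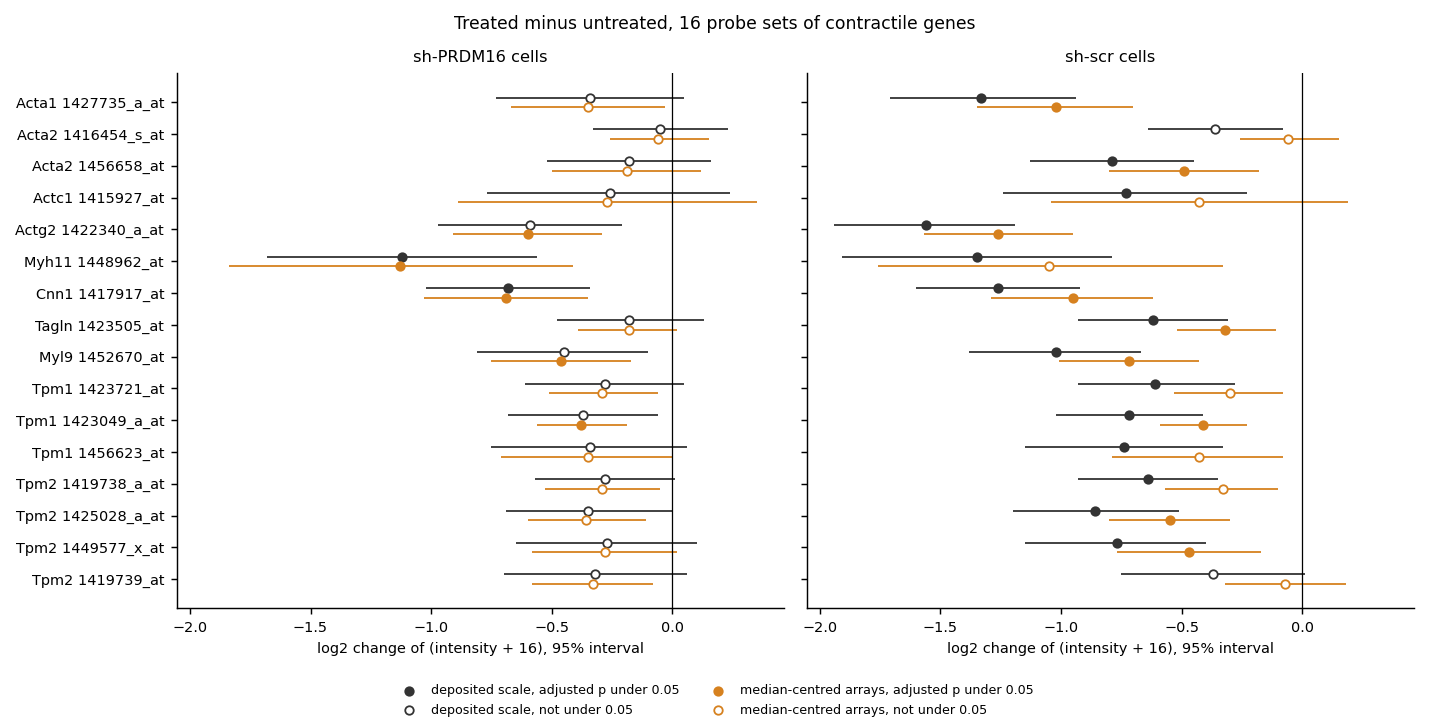
Log2 change with rosiglitazone, treated minus untreated, of the 16 tested member probe sets in sh-PRDM16 cells (left) and sh-scr cells (right), with 95% intervals, on the deposited scale and on median-centred arrays; filled points have an adjusted p under 0.05 (limma). All 16 values lie under 0 in both panels on both scales, and median centring moves the sh-scr values toward 0.

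Across the members, rosiglitazone lowered 14 of 16 probe sets, of all 10 genes, in sh-scr cells and raised 0. Of all 15285 probe sets, 25.4% fell there, and the median change of all was log2 -0.30 against -0.75 for the members. On median-centred arrays 9 of 16 fell against 8.22% of all, with medians of -0.45 and 0.01. The treated and untreated arrays did not overlap for any of the 16, all lower when treated, where 62.1% of all probe sets did the same. The 2 that were not called were Acta2 1416454_s_at and Tpm2 1419739_at. Acta2 is thus among the 10 genes only through the dim 1456658_at, which was under the filter floor in treated sh-scr cells and passed the filter through the other groups.

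The sh-scr counts changed when single arrays were left out. Each such fit left 1 array in a group and less power for every probe set. These counts, and the same counts for the other comparisons below, cannot tell that loss from fragility of the members. Without treated sh-scr replicate 2 the 14 became 4, without untreated sh-scr replicate 2 they became 6, and without untreated sh-scr replicate 1 they became 9. The arrays cannot tell fewer contractile cells from less RNA of these genes per cell. The β-actin 3′ minus 5′ difference was also highest in the treated sh-scr arrays, and its part in the result was not tested.

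In sh-PRDM16 cells, 2 of 16 probe sets, Myh11 and Cnn1, fell with rosiglitazone and 0 rose. Of all probe sets 2.26% fell, and the median change was 0.00 for all and -0.33 for the members. On median-centred arrays 5 fell, against 7.25% of all, the added ones being Actg2, Myl9 and Tpm1 1423049_a_at. With quantile normalization 9 fell, against 10.6% of all. Leaving out treated sh-PRDM16 replicate 1 left 1 call, and leaving out any of the other 3 sh-PRDM16 arrays left 0. Calls over all probe sets were also fewer in each of those fits. Treated arrays lay under untreated arrays without overlap for 14 of 16, against 22.7% of all probe sets.

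The difference between the 2 drug responses was tested itself, as an interaction. None of the 16 passed with limma, where 0.157% of all probe sets did. An unadjusted limma p under 0.05 was found for 7 of the 16 and for 3293 of all 15285. On median-centred arrays it was found for 2 of the 16 and for 1837 of all 15285. For Acta1 the difference was log2 0.99 (SE 0.24, 95% interval 0.45 to 1.53, limma adjusted p = 0.133) and for Actg2 0.97 (SE 0.24, 95% interval 0.44 to 1.51, limma adjusted p = 0.133). The median of all probe sets was 0.32, and on median-centred arrays the values were 0.68 for Acta1 and 0.66 for Actg2 (adjusted p = 0.255 and 0.253). Both passed when the lower 50% of probe sets was left out (adjusted p = 0.00372 and 0.00394) and with 64 added in place of 16 (0.00508 and 0.00835). The members are therefore not shown to respond differently in the 2 lines under the fit used here.

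**Figure D3:**
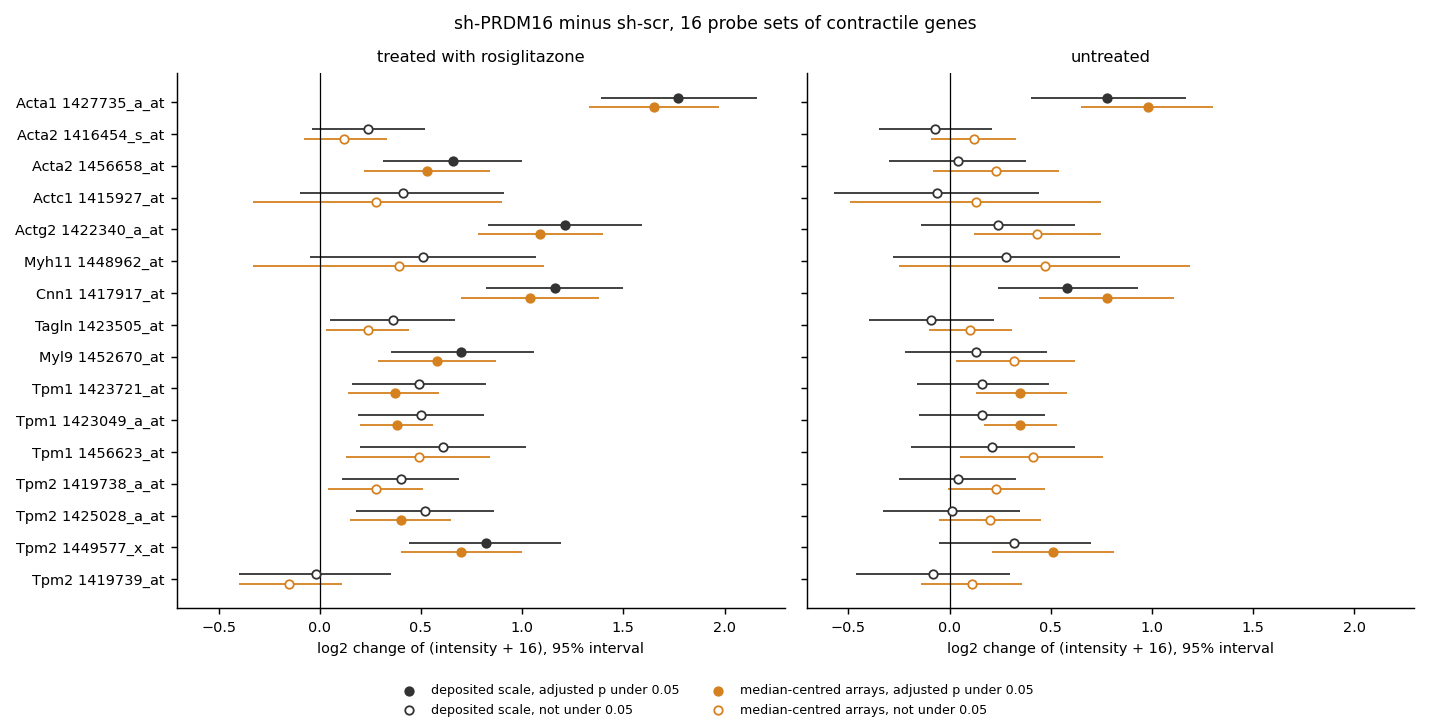
Log2 difference of sh-PRDM16 minus sh-scr cells for the 16 tested member probe sets, with rosiglitazone (left) and without (right), with 95% intervals, on the deposited scale and on median-centred arrays; filled points have an adjusted p under 0.05 (limma). Acta1 has the highest value in both panels, at log2 1.77 and 0.78 on the deposited scale.

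Between the lines with rosiglitazone present, 6 of 16 probe sets, of 6 genes, rose in sh-PRDM16 cells against sh-scr cells and 0 fell. They were Acta1, Actg2, Cnn1, Tpm2 1449577_x_at, Myl9 and Acta2 1456658_at. The last was under the filter floor in treated sh-scr cells and passed the filter through the other groups, and the bright Acta2 probe set differed by log2 0.24 (limma adjusted p = 0.216). Tpm2 is among the 6 genes only through 1449577_x_at. Its brighter 1419738_a_at and 1425028_a_at differed by log2 0.40 and 0.52 (limma adjusted p = 0.0804 and 0.0612). On median-centred arrays 1425028_a_at was called (0.40, adjusted p = 0.0438) and 1419738_a_at was not. Of all probe sets 6.93% rose, and the median difference was 0.15 for all and 0.52 for the members. On median-centred arrays 9 rose, against 9.75% of all, and the 6 were called on all 3 scales. Without treated sh-scr replicate 2, treated sh-PRDM16 replicate 1 or treated sh-PRDM16 replicate 2, 3 remained of the 6.

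Without rosiglitazone, 2 of 16, Acta1 and Cnn1, rose in sh-PRDM16 cells and 0 fell. Of all probe sets 1.25% rose and the median of all was -0.16, against 0.14 for the members. On median-centred arrays 5 rose, against 7.05% of all, and all 16 values were above 0. Leaving out any 1 of the 4 untreated arrays left 0 calls, and leaving out either treated sh-PRDM16 array left 1.

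Marker lists of other cells moved between the lines as well. Macrophage and leukocyte markers fell in 6 of 8 genes tested in sh-PRDM16 against sh-scr cells, both with and without the drug (7 and 6 on median-centred arrays), with Lyz2, macrophage lysozyme, at log2 -3.62 and -3.69 (limma adjusted p = 6.45e-06 and 5.4e-06). The shares of all probe sets that fell were 3.42% with the drug and 10.9% without it, and 9.62% and 9.29% on median-centred arrays. Adipocyte markers summed to 69841 and 75621 in treated sh-PRDM16, 55400 and 48481 in untreated sh-PRDM16, 80130 and 84604 in treated sh-scr, and 78835 and 80444 in untreated sh-scr cells. Of 11 adipocyte markers 3 fell in sh-PRDM16 against sh-scr cells with the drug and 9 without it. On median-centred arrays 8 fell with the drug and 9 without it. The part of these cell types in the actin values was not tested.

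**Figure D4:**
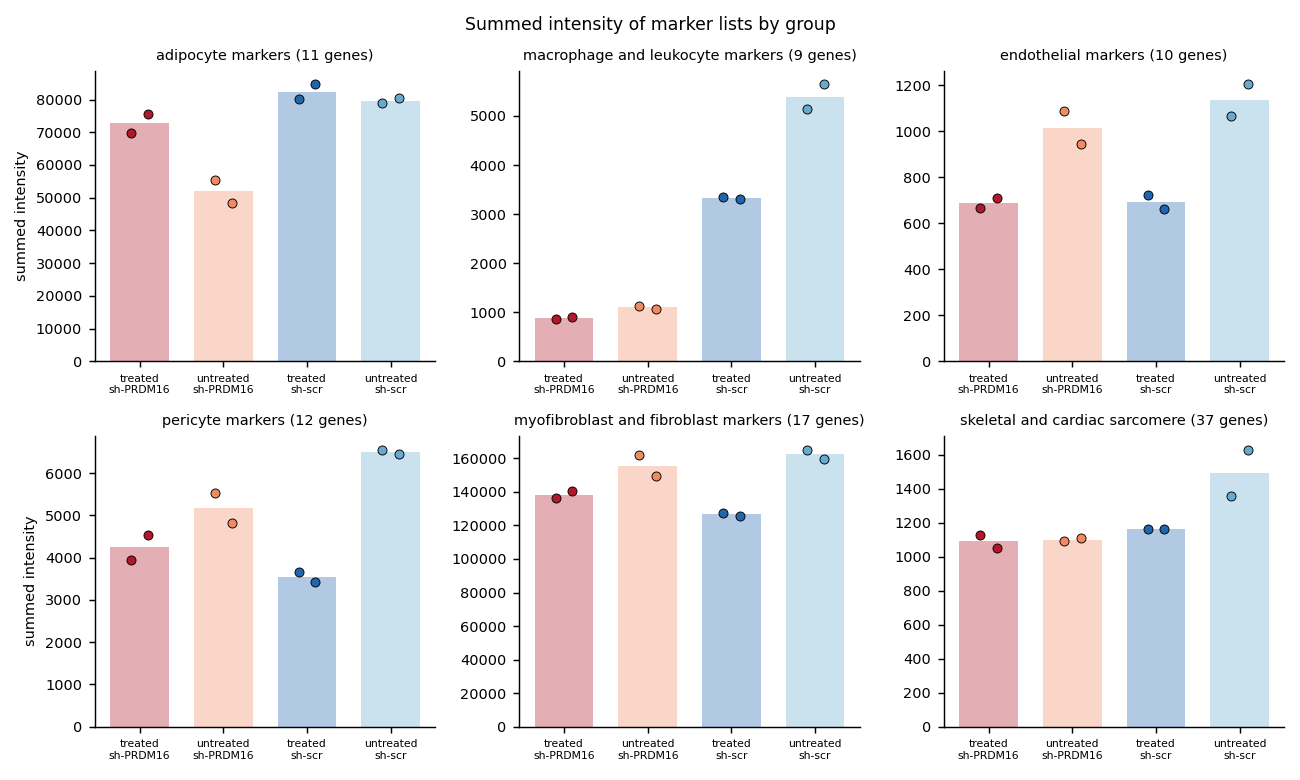
Summed array intensity of 6 marker lists in treated sh-PRDM16, untreated sh-PRDM16, treated sh-scr and untreated sh-scr cells (bars, mean of 2 arrays; points, the arrays), 1 probe set a gene. The macrophage and leukocyte sum is at most 1136 in sh-PRDM16 arrays and at least 3312 in sh-scr arrays.

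Pericytes and fibroblasts also carry contractile genes. Of 11 pericyte markers tested, 1 rose and 2 fell in treated sh-PRDM16 against treated sh-scr cells: Rgs4 at log2 0.62, and Cspg4 and Kcnj8 at -0.92 and -0.57 (limma adjusted p = 0.0328, 0.00619 and 0.0291), where 6.93% of all probe sets rose and 3.42% fell. On median-centred arrays 0 rose and 3 fell, and Rgs4 was no longer called (0.50, adjusted p = 0.0731). Of 17 fibroblast markers 1 rose and 1 fell there, Thy1 at 0.56 and S100a4 at -0.55 (1 and 2 on median-centred arrays). With the drug in sh-scr cells 11 of the 17 fell against 25.4% of all probe sets, and 5 against 8.22% on median-centred arrays, with Lum, a matrix proteoglycan, at -0.91. In sh-PRDM16 cells 1 of 17 fell with the drug, Lum at -0.68, against 2.26% of all, and 9 on median-centred arrays against 7.25%. Of 9 endothelial markers 2 fell with the drug in sh-PRDM16 cells, Tek and Emcn, and 3 in sh-scr cells, and 3 and 1 did on median-centred arrays. Emcn changed by -0.73 in sh-PRDM16 cells and -1.22 in sh-scr cells. Tek read 11.3 and 11.7 in treated sh-PRDM16 cells, under the filter floor, against 48.2 and 36.7 in untreated sh-PRDM16 cells, so no size is given. Their part in the member values was not tested.

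The wider contractile and cytoskeletal genes were tested alongside. Of 39, 27 fell and 0 rose with the drug in sh-scr cells, where 25.4% of all probe sets fell, and 17 fell and 1 rose on median-centred arrays, where 8.22% of all fell. Tagln2, a transgelin of non-muscle cells, fell by 1.60 on the log2 scale, Ppp1r14a, an inhibitor of myosin phosphatase, by 1.56, and Mylk, the kinase of the myosin light chain, by 1.13 (limma adjusted p = 0.006, 0.000976 and 0.00268). In sh-PRDM16 cells 2 of 39 fell, Mylk at -0.59 and Palld at -0.58, against 2.26% of all, and 15 fell on median-centred arrays against 7.25%.

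Ppp1r14a read 68.2 and 86.6 in treated sh-PRDM16, 119 and 92.3 in untreated sh-PRDM16, 20.5 and 19.9 in treated sh-scr, and 86 and 95.7 in untreated sh-scr cells. The treated sh-scr arrays stood alone near the filter floor. With the drug it rose in sh-PRDM16 against sh-scr cells (log2 1.36, SE 0.16, limma adjusted p = 0.00255), as did 4 more of the 39, with Tagln2 at 1.53, Pdlim7 at 0.71 and Zyx at 0.70. These 5 of 39 stand against 6.93% of all probe sets that rose, and on median-centred arrays 12 rose, against 9.75%, and 1 fell. Without the drug Lmod1, the leiomodin of smooth muscle, rose by log2 0.73 and Des, desmin, fell by 0.96 (limma adjusted p = 0.0296 and 0.0206). On median-centred arrays 8 of the 39 rose, against 7.05% of all, and Des was no longer called (-0.77, adjusted p = 0.0732).

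Regulators of these genes were measured too. Srf, serum response factor, read 399.6 and 389.5 in treated sh-PRDM16, 529 and 476 in untreated sh-PRDM16, 446 and 319 in treated sh-scr, and 598 and 511 in untreated sh-scr cells, and passed in none of the contrasts. Myocd, the smooth muscle co-activator of serum response factor, read 1.1 to 28.6 and was not tested. Of 33 genes of the serum response factor, YAP and TGF-β pathways, 16 fell and 1 rose with the drug in sh-scr cells (6 and 2 on median-centred arrays). In sh-PRDM16 cells 1 fell and 2 rose (7 and 3 on median-centred arrays). Of all probe sets 2.26% fell in sh-PRDM16 cells and 25.4% in sh-scr cells, and 7.25% and 8.22% on median-centred arrays. Ankrd1, a YAP and muscle stress target, fell with the drug by 0.73 on the log2 scale in sh-PRDM16 cells and by 1.20 in sh-scr cells (limma adjusted p = 0.0236 and 0.00274). Fosl1 and Fos went the other way in sh-PRDM16 cells, at 0.89 and 0.68 (limma adjusted p = 0.0247 and 0.0154). Fosl1 was also higher with the drug in sh-scr cells, at 1720 and 1538 against 761 and 1004 untreated. Fos read 273 and 305 in treated and 306 and 299 in untreated sh-scr cells. Egr1 fell by 1.33 in sh-scr cells (limma adjusted p = 0.00423). In sh-PRDM16 against sh-scr cells with the drug, 3 of the 33 rose and 0 fell, where 6.93% of all probe sets rose. Among the 3 were Fos (log2 1.08, limma adjusted p = 0.00311) and Ankrd1 (log2 1.04, limma adjusted p = 0.00735). On median-centred arrays 5 of the 33 rose and 2 fell, where 9.75% of all probe sets rose and 9.62% fell.

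**Figure D5:**
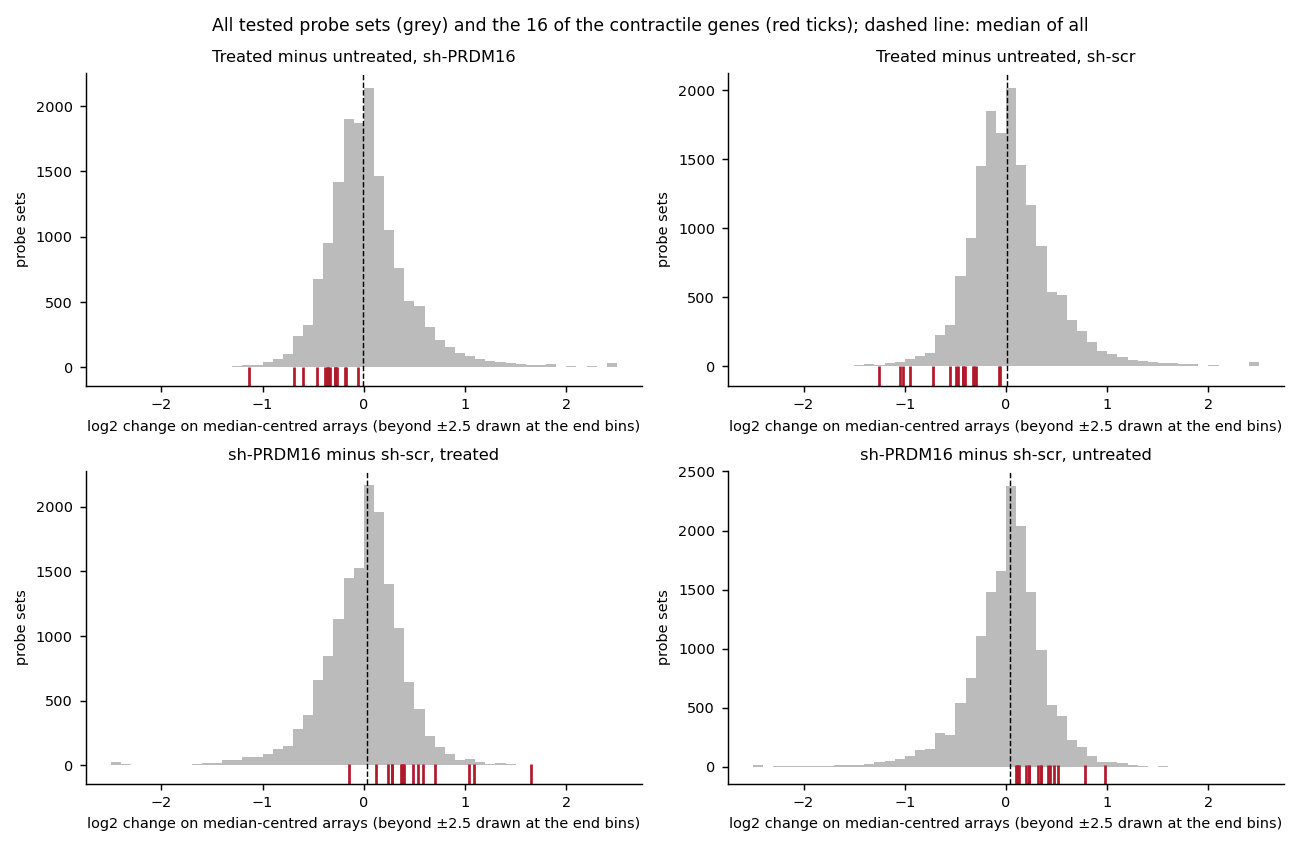
Number of probe sets by log2 change on median-centred arrays for all 15285 tested (grey), with the 16 member probe sets as red ticks and the median of all as a dashed line, for rosiglitazone in sh-PRDM16 and sh-scr cells (top) and sh-PRDM16 minus sh-scr cells with and without the drug (bottom). Member ticks lie under 0 in both top panels and 15 of 16 (bottom left) and 16 of 16 (bottom right) above 0, where Acta1 reaches 1.65.

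The profile of Acta2 over the 8 arrays was set against that of every tested gene as a root-mean-square difference of centred log2 values. Each gene was taken by its brightest probe set, for Acta2 1416454_s_at, which lay near the upper end of the range. The dim 1456658_at was not used. The nearest were Rpl8 (0.0216), Laptm4a (0.0253), Rps4x (0.0267), Rps3 (0.0278) and Utp11 (0.0349), and the median over 9459 genes was 0.224. The Acta2 profile itself had an SD of 0.0885, so the nearest genes are ones that varied little after centring. The other members stood further off, between rank 1188 for Tagln and rank 9113 for Acta1. This is a description over arrays that share groups.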

How the data were processed

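RNA of 8 samples was measured on Affymetrix mouse 430A_2 arrays, 2 per group, grouped by title. Per the labels' protocols, Trizol RNA was made into biotin-labelled cRNA. The deposited values are array intensities on a linear scale, from 0.1 to 22736. How probes were summarized, and whether arrays were scaled to each other, is not given in the sources used here. No detection calls were used, and every sample column was used (0 unused).

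Gene names came from the platform annotation: 20380 probe sets had 1 gene, 691 several, 1555 none listed, and 64 were controls. Probe sets with 1 gene were kept and the 25% with the lowest mean left out, which left 15285. limma 3.58.1 (R 4.3.3) was fitted once to log2(intensity + 16) of all 8 arrays with a mean per group, on the deposited scale, leaving 4 residual and 4.69 prior degrees of freedom. The two-sided p-values of a contrast were adjusted over all its probe sets by Benjamini-Hochberg, and 0.05 was the threshold. Precision is limited by the number of arrays: standard errors had a median of log2 0.16. The fit was tested on simulated data.

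The named genes were all member probe sets, up to 4 genes with the largest change of each of 8 lists per contrast, genes that check a label, and the 5 genes most like the brightest Acta2 probe set. Members and lists were chosen with earlier results of these data known. Some names were left out for length, and Srf and Lyz2 are given as a regulator and a marker. The alternatives were median centring, quantile normalization, 2 other filters, pseudocounts of 1 and 64, 1 probe set per gene, a replicate block, leaving out each array, and fits without the other 4 arrays.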

Additional observations from a re-analysis of the deposited data

How the results depend on the processing

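No member changed direction past the threshold under any alternative run. Of the 16 probe sets, rosiglitazone in sh-PRDM16 cells lowered 2 on the deposited scale, 5 on median-centred arrays, 9 with quantile normalization, 1 with no filter, 1 with a pseudocount of 1 and 4 with a pseudocount of 64. In sh-scr cells it lowered 14, and 9 on median-centred arrays. With the drug, 6 were higher in sh-PRDM16 cells, and 10 both with quantile normalization and with a pseudocount of 64. Without the drug 2 were higher, 5 on median-centred arrays, 4 with quantile normalization, 1 with no filter and 1 with a pseudocount of 1. The interaction called 0, and 2 with the lower 50% left out and 2 with a pseudocount of 64. Leaving out each array gave 0 to 3 and 4 to 15 calls for rosiglitazone in sh-PRDM16 and sh-scr cells, 3 to 7 and 0 to 2 for sh-PRDM16 against sh-scr with and without the drug, and 0 to 0 for the interaction; a lone array was assumed to vary like the others. The replicate numbers share only a number: same-numbered arrays deviated together at r of 0.010 to 0.040 over probe sets, and a replicate block gave 2, 14, 6, 2 and 0 calls. Counts over all 15285 probe sets moved too. In sh-PRDM16 cells the drug lowered 346, 1108 on median-centred arrays and 1616 with quantile normalization. In sh-scr cells it lowered 3879, and 1257 on median-centred arrays. Between the lines 1060 were higher in sh-PRDM16 cells with the drug, and 1453 with quantile normalization. Without it 191 were higher, and 1078 on median-centred arrays. Shifts between these scales are thus not shown to be particular to the members. The cause of these changes was not tested. Probe sets near the floor and near the top of the range limit what can be read.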
